A study of Mus musculus with 9 samples.

Results

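The genes described here make cholesterol and fatty acids, together with the proteins that control their transcription. They are 34 genes named by function, each read from the brightest probe set listed under its symbol, that is the set with the highest mean signal over all 9 arrays. A probe set is a group of short probes on the array that reads the same transcript. For 33 of the 34 a probe set was listed, and all 33 passed the filter on low signals, among 12941 genes tested in all. Acat2, a thiolase that feeds the mevalonate pathway, had none listed in the annotation used here and was not analysed.

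The arrays measured RNA of mouse small intestinal organoids, epithelial structures in which stem cells and their differentiated progeny grow together in culture. There were 3 arrays of organoids with no treatment, 3 with a TgfbR1/2 inhibitor at 20 uM and 3 with the Tgfb1 ligand at 0.04 ng/mL. The organoids were treated without a break for 5 days from day 1 and grown for 6 days. The labels name no strain, genotype, sex, age, inhibitor compound or vehicle. Nothing in them states whether the triplicates came from separate cultures, and p-values therefore cover only array-to-array spread, which may be technical. Signals are linear MAS5 values as mean ± SD (n = 3 arrays per group), and each change is an estimate ± SE on the log2(signal + 16) scale. A gene is said to have risen, fallen or been called where limma's Benjamini-Hochberg adjusted p over all tested genes was under 0.05.

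Cholesterol is built from acetyl-CoA through mevalonate, whose early products also supply isoprenoid lipids. Squalene is then closed to lanosterol, which a chain of reductases, oxidases and isomerases turns into cholesterol. Transcription of most of these genes is driven by SREBP-2, the product of Srebf2, and that of fatty acid synthesis genes by SREBP-1, the product of Srebf1. Both reach the nucleus only when their escort Scap is free of the Insig proteins, which hold it in the endoplasmic reticulum when sterols are plentiful. Enterocytes of the small intestine make cholesterol as well as absorbing it from food and bile.

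SREBP binds DNA at sterol regulatory elements, usually beside sites of the factors NF-Y and Sp1. RefSeq's promoter table for GRCm38.p6 held entries for 28 of the 34 genes, and the 250 bases before each start were searched on both strands for 5 patterns: TCACCCCAC, a strict form of the sterol element; TCACNCCAC, a looser form that includes the former; CCAAT, the NF-Y box; CACGTG, an E-box; and GGGCGG, the Sp1 box. Hmgcs1 is printed because it was the 1 gene of these 28 with either form of the sterol element. Lss, Tm7sf2, Insig1 and Insig2 are printed because they were called in all 3 comparisons below and held a CCAAT in the entry farthest upstream. Bases that belong to any of the 5 patterns are in capitals, and each sequence runs 5′ to 3′ along the gene and ends at the base before the start.
Hmgcs1 (chr13:119690101-119690350, plus strand): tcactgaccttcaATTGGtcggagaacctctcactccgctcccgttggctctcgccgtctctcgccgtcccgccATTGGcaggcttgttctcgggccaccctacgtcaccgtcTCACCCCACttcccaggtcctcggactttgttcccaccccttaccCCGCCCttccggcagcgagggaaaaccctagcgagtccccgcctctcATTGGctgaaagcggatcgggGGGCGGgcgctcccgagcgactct
Lss (chr10:76531355-76531604, plus strand): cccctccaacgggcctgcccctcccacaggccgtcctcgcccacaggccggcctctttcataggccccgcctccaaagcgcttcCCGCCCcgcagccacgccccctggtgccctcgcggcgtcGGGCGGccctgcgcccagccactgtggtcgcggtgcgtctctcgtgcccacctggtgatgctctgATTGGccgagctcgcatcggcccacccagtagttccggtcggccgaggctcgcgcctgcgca
Tm7sf2 (chr19:6067851-6068100, minus strand): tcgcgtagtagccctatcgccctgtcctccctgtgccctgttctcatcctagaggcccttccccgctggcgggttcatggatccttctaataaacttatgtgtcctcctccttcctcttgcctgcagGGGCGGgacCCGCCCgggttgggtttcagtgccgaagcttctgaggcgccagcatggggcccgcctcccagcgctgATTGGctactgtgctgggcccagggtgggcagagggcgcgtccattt
Insig1 (chr5:28071162-28071411, plus strand): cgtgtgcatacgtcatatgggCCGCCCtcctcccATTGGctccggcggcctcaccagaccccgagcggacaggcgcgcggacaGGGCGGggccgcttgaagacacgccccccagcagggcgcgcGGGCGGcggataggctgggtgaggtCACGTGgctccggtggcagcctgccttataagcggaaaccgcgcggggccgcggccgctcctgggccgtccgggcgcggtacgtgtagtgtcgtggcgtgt
Insig2 (chr1:121332590-121332839, minus strand): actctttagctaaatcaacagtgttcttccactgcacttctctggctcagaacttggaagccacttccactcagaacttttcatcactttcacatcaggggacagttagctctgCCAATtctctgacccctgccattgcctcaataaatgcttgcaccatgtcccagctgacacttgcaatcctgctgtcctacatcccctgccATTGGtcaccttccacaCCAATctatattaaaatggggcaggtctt

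In these stretches CCAAT occurred 3 times in Hmgcs1 and 3 times in Insig2, and 1 time each in Lss, Tm7sf2 and Insig1. The table lists 3 starts for Insig2, and the stretches before the others held no CCAAT. Over the 28 genes, 22 (78.6%) held a CCAAT before at least 1 of their starts. The share was 37.5% over all 27025 genes of the table and 40.1% over the 10467 of them that were tested on these arrays. GGGCGG was held by 22 (78.6%) of the 28, against 61.6% of tested genes, and CACGTG by 5 (17.9%), against 9.82%. The looser sterol element was held by 1.22% of all genes in the table and the strict form by 0.555%. Other variants of the element, and bases farther from the start, were not searched. A gene without a match may therefore still hold such an element. Genes with several starts had more than 1 stretch searched, and these matches are descriptions of sequence only.

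The treatments were first read on target genes of Tgfb signalling. Pmepa1, a feedback inhibitor of that signalling, had a signal of 205 ± 21.0 in untreated arrays, 83.7 ± 5.67 with the inhibitor and 631 ± 70.3 with the ligand. Skil, a repressor induced by it, rose by 1.27 ± 0.08 with the ligand and had a change of 0.01 ± 0.08 (adjusted p 0.95) with the inhibitor. Smad7 fell by 0.39 ± 0.15 with the inhibitor (adjusted p 0.0473) and had a change of 0.22 ± 0.15 (adjusted p 0.334) with the ligand. All 8 epithelial markers passed the filter. The collagen genes Col1a1 and Col3a1, the leukocyte gene Ptprc, the endothelial genes Pecam1 and Cdh5, the liver genes Cyp7a1 and Ahsg and the fat cell gene Adipoq lay under it. Other markers of each of these cell types passed it. The median signal of an array ranged from 46.1 to 57.9.

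Markers of cell types moved with the treatments. The summed signal of 15 enterocyte markers was 82310 to 91480 in untreated, 97370 to 119500 in inhibitor and 63090 to 69460 in ligand arrays. Under the inhibitor 9 of 15 were called higher and 0 lower, where 21.1% of all genes were called higher and 23.9% lower. With the ligand 9 were called lower and 1 higher, where 9.28% of all genes were called lower and 14.7% higher. For 8 stem cell markers the sums were 23580 to 26290, 7049 to 7528 and 30530 to 33330, and for 14 cell cycle genes 34550 to 37860, 21580 to 23640 and 37090 to 41830. Enterocyte sums ran in the same order of groups as the sterol genes that were called in both treatments with opposite signs, and their part in those results was not tested. In bulk RNA such as this, fewer cells of a type and less RNA per cell cannot be told apart. Of 5 fat cell markers with a probe set, Adipoq, Lep and Fabp4 lay under the filter, and the summed signal of all 5 was 188 to 231 in untreated, 340.1 to 375 in inhibitor and 191 to 211 in ligand arrays. Cidec, a lipid droplet protein, rose from a mean of 136 to 297 under the inhibitor. The other of the 2 fat cell markers past the filter had an uncalled change of -0.30 there. Liver markers summed to 3532 to 4557, 4353 to 5428 and 4382 to 4950, with 3 of 5 under the filter. Fibroblast markers summed to 319 to 342, 204 to 274 and 351 to 418 (5 of 8 under the filter), leukocyte markers to 1299 to 1478, 916 to 1072 and 1496 to 2322 (4 of 7) and endothelial markers to 93.5 to 146, 109.9 to 158 and 88.4 to 131 (4 of 6). Members of a list did not all move alike. Under the inhibitor the 2 tested liver markers had changes of 0.31 and -0.66, and the 3 tested leukocyte markers ran from -0.69 to 0.92. The part of these lists in the results was not tested either.

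Under the inhibitor 11 of the 33 genes rose and 2 fell. Across all 12941 genes 21.1% were called higher and 23.9% lower, so the called share of the set, 13 of 33, was near the 44.9% of all genes. The median change was 0.09 over the set and -0.01 over all genes. With the ligand 1 rose and 7 fell, where 14.7% of all genes were called higher and 9.28% lower (24% in either direction), with medians of -0.11 and 0.05. Set against each other, ligand and inhibitor differed in 15 genes, all lower with the ligand, where 22.9% of all genes were called lower and 32.4% higher (55.3% in either direction), with medians of -0.16 and 0.07. Both comparisons with untreated use the same 3 untreated arrays. Centring each array on its median instead turned the ligand's calls over all genes from 61.3% to 36.6% higher and its median to -0.06, with 8 genes of the set called, each lower. For ligand against inhibitor the same centring left 41.8% of all called genes higher, in place of 58.6% of them. The medians were then -0.32 for the set and -0.09 for all genes, and 20 genes of the set were lower.

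Counting the genes whose 3 arrays all lay on the same side of the other group gave 15 higher and 4 lower of 33 under the inhibitor. Over all genes 56% did not overlap there, 26.6% higher and 29.3% lower. With the ligand the counts were 2 and 12, where 38.6% of all genes did not overlap, 24.2% higher and 14.4% lower. Ligand against inhibitor gave 1 higher and 16 lower, where 60.6% of all genes did not overlap, 35.1% higher and 25.5% lower.

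**Figure D1:**
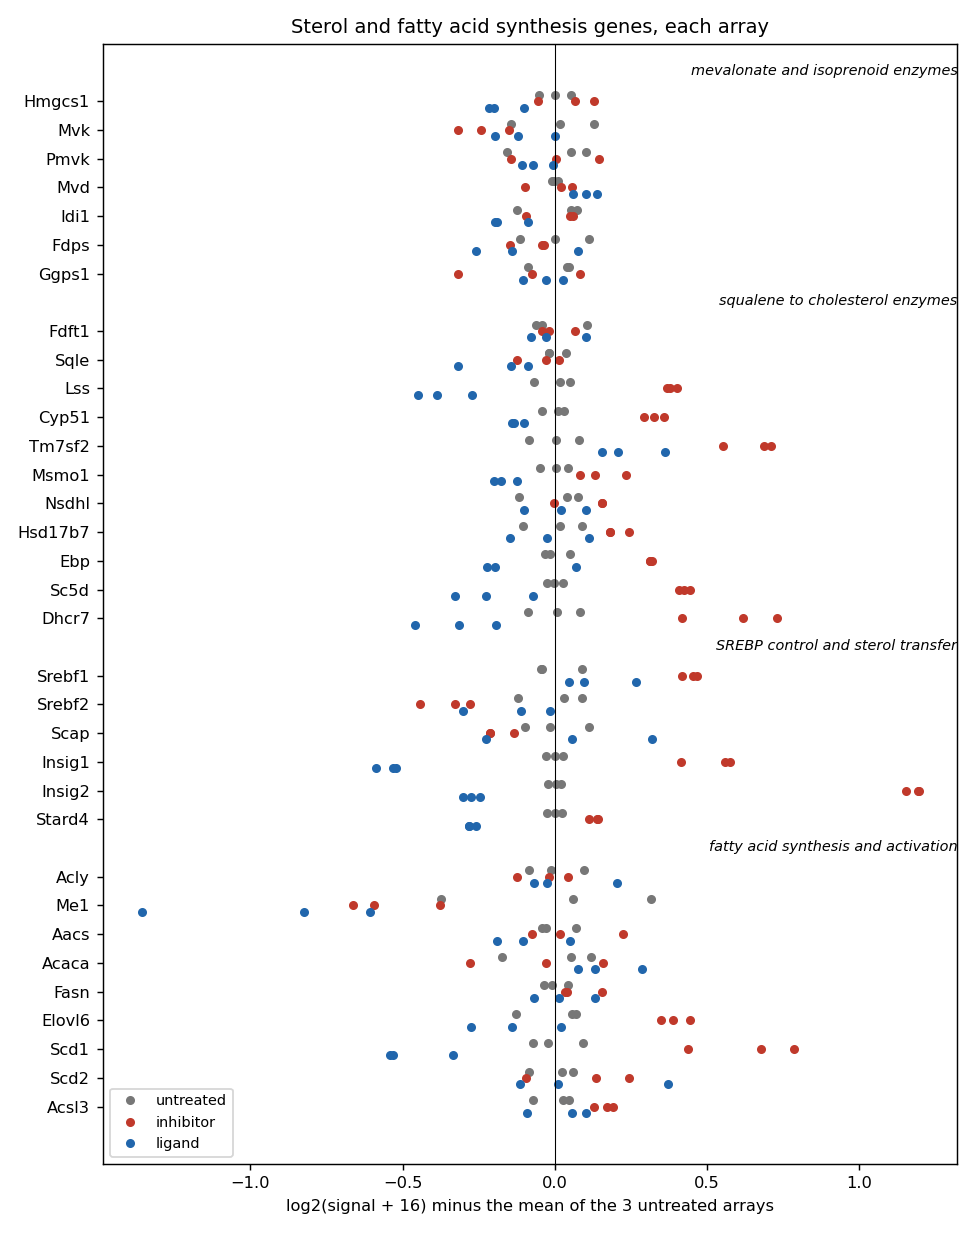
Values of the 33 genes on each array as log2(signal + 16) minus the mean of the 3 untreated arrays (x axis), by gene and role (y axis); each point is 1 array. Inhibitor arrays lie to the right for Insig2, Tm7sf2, Scd1 and Dhcr7 and ligand arrays to the left for Insig1, Scd1 and Lss, while the groups mix for most of the mevalonate enzymes.

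On their brightest probe sets, none of the 7 measured enzymes of the mevalonate and isoprenoid steps was called in either comparison with untreated. There limma gave an unadjusted p under 0.05 to 1 under the inhibitor and 0 with the ligand, and their changes ran from -0.24 to 0.05 under the inhibitor and from -0.17 to 0.10 with the ligand. Hmgcs1, which joins acetoacetyl-CoA and acetyl-CoA to HMG-CoA, had signals on probe set 1433445_x_at of 10417, 11210 and 10822 in untreated, 10409, 11812 and 11310 in inhibitor and 9416, 10078 and 9309 in ligand arrays. All 3 ligand arrays lay below the untreated and the inhibitor arrays, which overlapped each other. A dimmer set of mean signal 2238 fell with the ligand (-0.28 ± 0.07, adjusted p 0.0136), the dimmest, at 349, rose under the inhibitor (0.41 ± 0.12, adjusted p 0.0218), and the mean of the sets fell with the ligand (adjusted p 0.0358). On the brightest set the change was -0.17 ± 0.08 (adjusted p 0.149) with the ligand and 0.05 ± 0.08 (adjusted p 0.682) with the inhibitor, and it was lower with the ligand than with the inhibitor by 0.22 ± 0.08 (adjusted p 0.0352). That last call was lost without untreated replicate 3 (0.0549), inhibitor replicate 2 (0.128) or 3 (0.103) and ligand replicate 1 (0.0924) or 3 (0.0544), with no filter (0.0626) and in a fit of the 2 groups alone (0.0759), and its adjusted p spanned 0.000372 to 0.128 across the alternatives.

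Of the next kinases, Mvk phosphorylates mevalonate. Its untreated signal was 395 ± 38.3 and its inhibitor signal 332 ± 20.6, with no overlap. Its change of -0.24 ± 0.09 (adjusted p 0.0553) did not pass, but did without untreated replicate 1 (0.0256) or ligand replicate 3 (0.0431), in a range of 0.0256 to 0.201. Pmvk, which adds the following phosphate, had changes of 0.00 ± 0.09 under the inhibitor and -0.06 ± 0.09 with the ligand. For Mvd, which decarboxylates the product, ligand arrays lay above untreated arrays (1166 ± 32.8 against 1087 ± 8.33) at an adjusted p of 0.297. Idi1, the isomerase that makes the reactive isoprene unit, had changes of 0.00 ± 0.08 and -0.16 ± 0.08. Fdps and Ggps1 join such units to farnesyl and geranylgeranyl diphosphate. On their brightest sets the changes were -0.08 ± 0.09 and -0.10 ± 0.10 under the inhibitor, and -0.11 ± 0.09 and -0.04 ± 0.10 with the ligand. Of 4 sets of Ggps1, the set at a mean signal of 233 (the brightest is at 378) rose under the inhibitor by 0.45 ± 0.09 (adjusted p 0.00127) and was lower with the ligand than with the inhibitor (-0.54 ± 0.09, adjusted p 0.000204), while the others were not called.

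The enzymes that take squalene to cholesterol held 6 of the 11 rises under the inhibitor. These were 6 of 11 enzymes, with a median change of 0.31, where 21.1% of all genes were called higher with a median of -0.01. With the ligand 2 fell and 1 rose (median -0.13), where 9.28% of all genes were called lower and 14.7% higher. Between the treatments 8 of 11 were lower with the ligand, where 22.9% of all genes were. The branch starts with Fdft1, squalene synthase, whose groups all overlapped (5832 ± 376, 5835 ± 235 and 5826 ± 382), and with Sqle, the epoxidase that limits the rate of this branch. Sqle had signals on probe set 1415993_at of 5060, 5254 and 5059 in untreated, 4700, 5017 and 5173 in inhibitor and 4823, 4112 and 4631 in ligand arrays. The ligand arrays lay below the untreated ones, while inhibitor arrays overlapped both groups, and neither the change with the ligand (-0.18 ± 0.08, adjusted p 0.104) nor that with the inhibitor (-0.05 ± 0.08, adjusted p 0.657) passed.

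Lss closes squalene epoxide to lanosterol. Its signals on probe set 1420013_s_at were 2736, 2906 and 2969 in untreated, 3710, 3798 and 3733 in inhibitor and 2099, 2188 and 2373 in ligand arrays. The 3 groups did not overlap, with inhibitor arrays highest and ligand arrays lowest. Lss rose by 0.38 ± 0.07 (adjusted p 0.000473) under the inhibitor and fell by 0.37 ± 0.07 with the ligand (adjusted p 0.0016). With the mean over its probe sets the inhibitor call was lost (log2 change 0.07, adjusted p 0.557, range 0.000113 to 0.557).

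Cyp51, the cytochrome P450 that removes a methyl group from lanosterol, rose under the inhibitor from 4309 ± 109 to 5407 ± 125, a change of 0.33 ± 0.06 (adjusted p 0.00096). With the ligand its signal was 3947 ± 61.7 and its change did not pass (adjusted p 0.179), though all 3 ligand arrays lay below the untreated ones. Tm7sf2, a sterol reductase that acts next, had signals on probe set 1460684_at of 1526, 1623 and 1709 in untreated, 2660, 2618 and 2383 in inhibitor and 1873, 1805 and 2085 in ligand arrays. The groups did not overlap, and here both treated groups lay above untreated, the inhibitor arrays highest. The inhibitor raised it 1.57-fold, by 0.65 ± 0.08 (adjusted p 1.69e-05), and the ligand by 0.24 ± 0.08 (adjusted p 0.0347). Leaving out untreated replicate 1 (0.135), untreated replicate 2 (0.0832), ligand replicate 1 (0.0611) or ligand replicate 3 (0.0862) ended the call with the ligand. So did median centring (0.414, with a change of 0.13), a fit with no intensity trend (0.0746) and a fit of the 2 groups alone (0.0572), in a range of 0.0254 to 0.414.

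Msmo1, Nsdhl and Hsd17b7 strip methyl groups from the sterol ring. Msmo1 lay higher in inhibitor (7545 ± 405) and lower in ligand arrays (6053 ± 159) than in untreated arrays (6798 ± 212) with no overlap. Neither change from untreated passed (adjusted p 0.113 and 0.114), while ligand and inhibitor differed by -0.32 ± 0.07 (adjusted p 0.0021). With the mean over its probe sets that difference did not pass (0.149, range 0.00138 to 0.149). Hsd17b7 had a change of 0.20 ± 0.08 (adjusted p 0.0503) under the inhibitor, at the edge of the threshold. It passed without untreated replicate 3 (0.0394) or ligand replicate 2 (0.0353) or 3 (0.0216), in a fit of the 2 groups alone (0.0236) and on the brightest probe set not ending in _x_at (0.012), in a range of 0.012 to 0.341. Its difference between ligand and inhibitor, -0.22 ± 0.08 (adjusted p 0.027), was lost without any 1 of the inhibitor arrays or without ligand replicate 1 or 2 (adjusted p 0.0522 to 0.115), and with the mean over its probe sets (0.261). For Nsdhl the changes were 0.10 ± 0.08 and 0.01 ± 0.08, and all groups overlapped.

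The last enzymes of the chain rose under the inhibitor. Ebp, a sterol isomerase, went from 2722 ± 82.6 to 3388 ± 9.96, by 0.31 ± 0.08 (adjusted p 0.00533). With the ligand it had a change of -0.12 ± 0.08 (adjusted p 0.323), which passed without ligand replicate 3 (0.0231, range 0.0231 to 0.657). Sc5d, a desaturase, had signals on probe set 1451457_at of 3478, 3405 and 3349 in untreated, 4580, 4650 and 4528 in inhibitor and 2915, 2716 and 3245 in ligand arrays. The groups did not overlap, inhibitor arrays being highest. Sc5d rose by 0.43 ± 0.07 (adjusted p 0.00037) under the inhibitor, a call lost with the mean over its probe sets (0.767). Its change with the ligand, -0.21 ± 0.07 (adjusted p 0.056), passed without ligand replicate 3 (0.00667) and under median centring (0.0418), in a range of 0.00667 to 0.41. Dhcr7, the reductase that completes cholesterol, had signals on probe set 1448619_at of 2476, 2646 and 2792 in untreated, 3527, 4385 and 4052 in inhibitor and 2116, 2303 and 1913 in ligand arrays. Again the groups did not overlap, and the inhibitor arrays spread most. It rose under the inhibitor by 0.59 ± 0.09 (adjusted p 0.000177), and fell with the ligand by 0.32 ± 0.09 (adjusted p 0.0222). The fall was lost without untreated replicate 2 (0.0631) or 3 (0.08), ligand replicate 1 (0.0535) or 3 (0.0606), and with no intensity trend (0.0576), in a range of 0.00805 to 0.08.

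**Figure D2:**
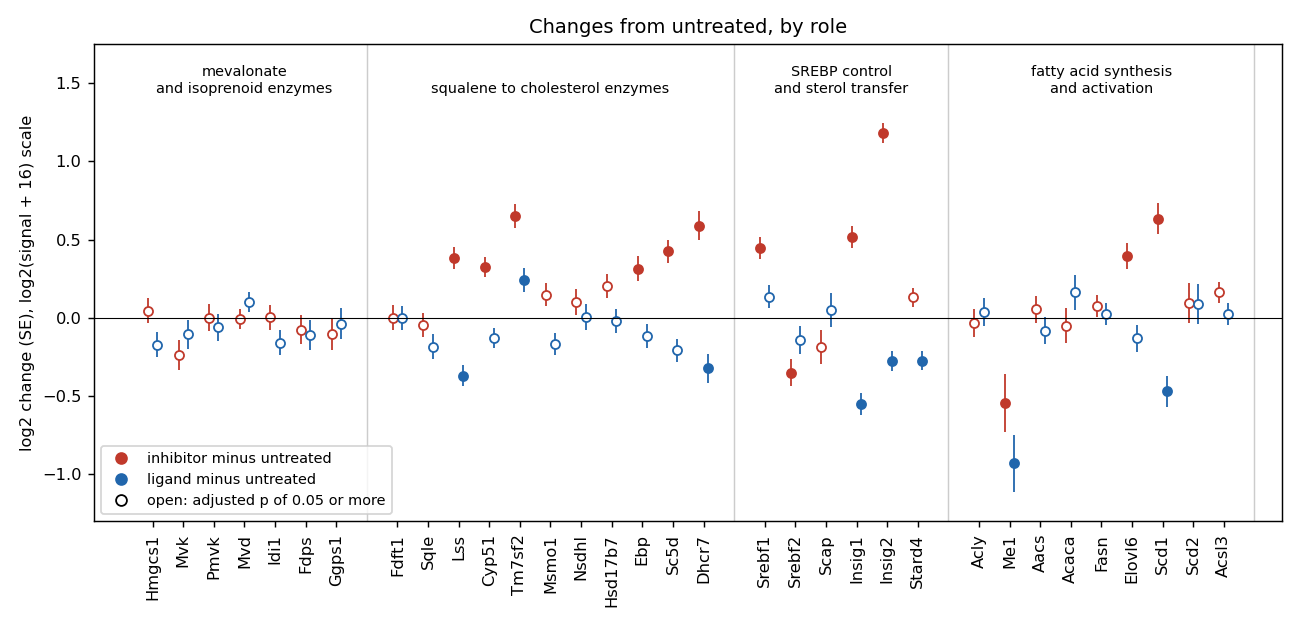
Log2 changes from untreated with their SE (y axis) for the 33 genes in the order of their steps (x axis), red for inhibitor and blue for ligand, n = 3 arrays a group; filled points had a limma adjusted p under 0.05. Filled points start at Lss in the sterol pathway, and Insig2 had the largest change, 1.18 under the inhibitor.

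Of 6 genes of SREBP control and sterol transfer 3 rose and 1 fell under the inhibitor, where 21.1% of all genes were called higher and 23.9% lower. With the ligand 3 fell, where 9.28% of all genes were called lower. Insig2 and Insig1, which retain Scap in the endoplasmic reticulum, had the largest changes among the 6. Insig2 had signals on probe set 1417982_at of 602, 584 and 595 in untreated, 1377, 1340 and 1379 in inhibitor and 487, 478 and 498 in ligand arrays. The 3 inhibitor arrays lay far above every other array, and the ligand arrays lay just under the untreated ones with no overlap. Insig2 rose 2.27-fold under the inhibitor, by 1.18 ± 0.06 (adjusted p 2.57e-08), and with the ligand it fell by 0.27 ± 0.06 (adjusted p 0.00642). Between ligand and inhibitor the difference was -1.45 ± 0.06 (adjusted p 1.35e-09), the largest of the 33 genes.

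Insig1, itself a well-known SREBP target, had signals on probe set 1454671_at of 5104, 5215 and 5314 in untreated, 6958, 7780 and 7680 in inhibitor and 3601, 3621 and 3460 in ligand arrays. The groups did not overlap, and the steps from untreated to either treated group were of like size in opposite directions. It rose by 0.52 ± 0.07 (adjusted p 5.29e-05) under the inhibitor and fell by 0.55 ± 0.07 with the ligand (adjusted p 0.0001), with a difference of -1.06 ± 0.07 between the treatments. All calls of Insig1 and Insig2 in the 3 pairwise comparisons held under the 20 alternatives run. Insig1 is read by a single listed probe set, while all 3 probe sets of Insig2 were called higher under the inhibitor (1.18 ± 0.06, 0.88 ± 0.07 and 1.06 ± 0.15 from brightest to dimmest).

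The SREBP genes went different ways under the inhibitor. Srebf1 had signals on probe set 1426690_a_at of 1808, 1649 and 1646 in untreated, 2276, 2356 and 2334 in inhibitor and 1755, 1817 and 2046 in ligand arrays. Inhibitor arrays lay above all others, and untreated and ligand arrays overlapped. Srebf1 rose by 0.45 ± 0.07 (adjusted p 0.000242) under the inhibitor and had a change of 0.14 ± 0.07 (adjusted p 0.207) with the ligand. Srebf2 had signals on probe set 1426744_at of 918, 791 and 881 in untreated, 629.9, 708 and 683 in inhibitor and 853, 697 and 797 in ligand arrays. Its inhibitor arrays lay below the untreated ones, and ligand arrays overlapped both groups. Srebf2 fell by 0.35 ± 0.09 under the inhibitor (adjusted p 0.0055), a call lost with the mean over its probe sets (0.0608, range 0.00264 to 0.0608). Ligand and inhibitor differed by 0.21 ± 0.09 (adjusted p 0.0607), which passed without ligand replicate 2 (0.015).

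Scap, the escort, had signals on probe set 1433520_at of 1008, 1070 and 1171 in untreated, 984, 931 and 930.2 in inhibitor and 1124, 923 and 1354 in ligand arrays. Inhibitor arrays lay below the untreated ones, and the ligand arrays spread widest, with replicate 2 the lowest and replicate 3 the highest of the 9 arrays. Its changes of -0.19 ± 0.11 (adjusted p 0.197) under the inhibitor and 0.05 ± 0.11 (adjusted p 0.795) with the ligand did not pass. The former passed in a fit of the 2 groups alone (0.0435) and with the mean over its probe sets (0.0466), in a range of 0.0435 to 0.448. Ligand against inhibitor, at 0.24 ± 0.11 (adjusted p 0.089), passed without ligand replicate 2 (0.00481, range 0.00481 to 0.626). Stard4, a soluble protein that carries sterol between membranes, fell with the ligand from 3357 ± 58.8 to 2772 ± 25.3, by 0.27 ± 0.06 (adjusted p 0.00486). Its inhibitor signal of 3676 ± 40.2 did not overlap the untreated one, at an adjusted p of 0.0947. Its other sets gave 0.03 ± 0.08 and, at a mean signal of 1489, a fall under the inhibitor (-0.21 ± 0.06, adjusted p 0.0193), while all 3 sets fell with the ligand.

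**Figure D3:**
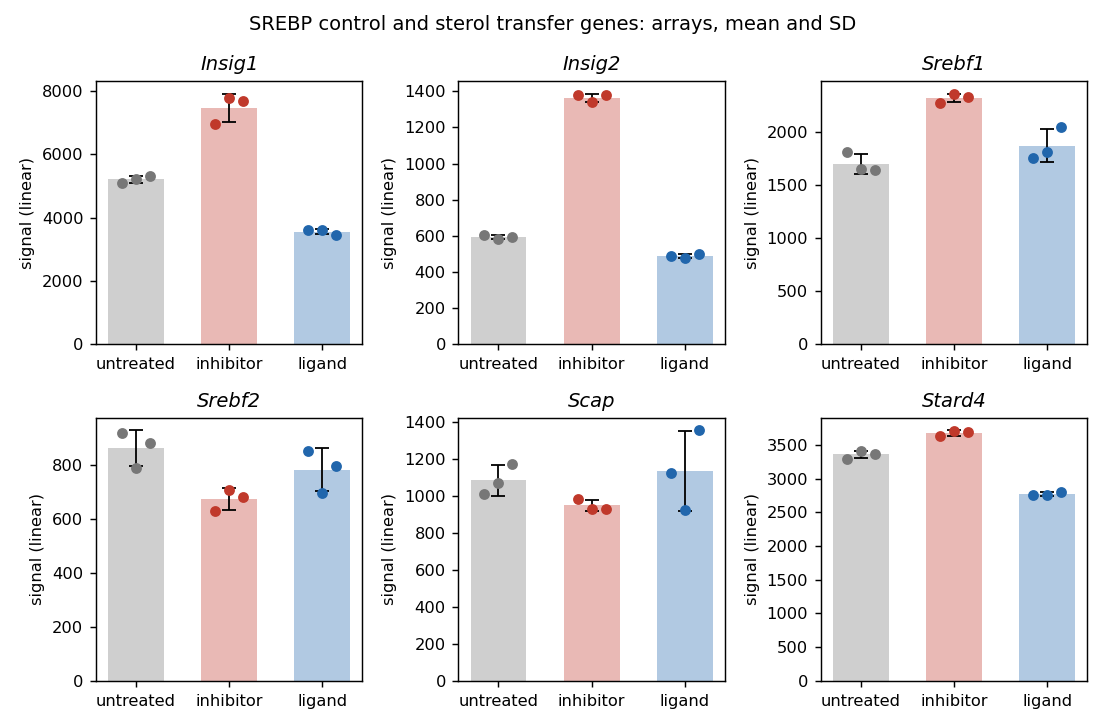
Linear signals (y axis) of 6 genes of SREBP control and sterol transfer in untreated, inhibitor and ligand organoids (x axis); points are arrays, bars the means and whiskers the SD of 3 arrays. Insig2 stood at 1365 in inhibitor and 593 in untreated arrays, while Srebf2 was lower in inhibitor than in untreated arrays.

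Of 9 genes of fatty acid synthesis 2 rose and 1 fell under the inhibitor, where 44.9% of all genes were called. With the ligand 2 fell, a share near the 24% of all genes called there. The medians were 0.08 and 0.02. Acly, which makes cytosolic acetyl-CoA from citrate, had changes of -0.03 ± 0.09 and 0.04 ± 0.09, and Acaca, the carboxylase that commits acetyl-CoA to fatty acids, of -0.05 ± 0.11 and 0.16 ± 0.11. For Acaca the difference between ligand and inhibitor (0.21 ± 0.11, adjusted p 0.12) passed without inhibitor replicate 1 (0.0316, range 0.0316 to 0.711). Fasn, fatty acid synthase, had signals on probe set 1423828_at of 2852, 2746 and 2697 in untreated, 2832, 3078 and 2843 in inhibitor and 2793, 2633 and 3032 in ligand arrays. All groups overlapped, and its changes were 0.08 ± 0.07 (adjusted p 0.42) under the inhibitor and 0.03 ± 0.07 (adjusted p 0.836) with the ligand. Aacs, which activates acetoacetate, had changes of 0.06 ± 0.09 and -0.08 ± 0.09.

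Of the genes that act on the finished chain, Scd1 and Elovl6 were called on their brightest sets and Scd2 and Acsl3 were not. Scd1, the desaturase that makes oleate, had signals on probe set 1415964_at of 8851, 9592 and 8561 in untreated, 12193, 15499 and 14394 in inhibitor and 6172, 6212 and 7127 in ligand arrays. The groups did not overlap, and the spread was widest among inhibitor arrays. Scd1 rose 1.55-fold under the inhibitor, by 0.63 ± 0.10 (adjusted p 0.000195), and fell by 0.47 ± 0.10 with the ligand (adjusted p 0.0044). Its paralog Scd2 had changes of 0.09 ± 0.13 (adjusted p 0.583) and 0.09 ± 0.13 (adjusted p 0.668) on its brightest probe set. Elovl6, which lengthens palmitate, had signals on probe set 1417404_at of 1997, 2274 and 2296 in untreated, 2789, 2980 and 2865 in inhibitor and 1978, 1803 and 2217 in ligand arrays. Inhibitor arrays lay above all others, and ligand and untreated arrays overlapped. Elovl6 rose by 0.39 ± 0.08 (adjusted p 0.0018) and differed by -0.53 ± 0.08 (adjusted p 0.00013) between ligand and inhibitor. Acsl3, which couples fatty acids to coenzyme A, had a change of 0.16 ± 0.07 (adjusted p 0.0741) under the inhibitor which passed without ligand replicate 3 (0.0427, range 0.0397 to 0.826).

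Me1, the malic enzyme that supplies NADPH for fatty acid synthesis, was lower in both treated groups on its brightest probe set. Its signals on probe set 1416632_at were 1307, 1092 and 805 in untreated, 656, 802 and 688 in inhibitor and 585, 399 and 683 in ligand arrays. Replicates spread widely, and in both treated groups every array lay below every untreated array, while the treated groups overlapped each other. Me1 fell by 0.93 ± 0.18 with the ligand (adjusted p 0.00262) and by 0.55 ± 0.18 under the inhibitor (adjusted p 0.0274). The latter call was lost without untreated replicate 1 (0.125) or 2 (0.0775), without inhibitor replicate 1 (0.093) or 3 (0.0729), with no filter (0.0528) and with no intensity trend (0.0703), in a range of 0.00532 to 0.125. The difference between ligand and inhibitor (-0.38 ± 0.18, adjusted p 0.0937) passed without ligand replicate 3 (0.0224). The other set of Me1 had a mean signal of 718, near the 780 of the brightest. It fell with the ligand (-0.66 ± 0.12, adjusted p 0.00281) but was not called under the inhibitor (-0.19 ± 0.12, adjusted p 0.262).

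The contrast of both treated groups combined against untreated called 3 genes higher and 2 lower, where 23.6% of all genes were called. Tm7sf2 (0.45 ± 0.07) and, on its brightest set, Me1 (-0.74 ± 0.16) were also called in the same direction in each treatment. Insig2 (0.45 ± 0.05), Srebf1 (0.29 ± 0.06) and Srebf2 (-0.25 ± 0.08) were not. For Insig2 the inhibitor raised and the ligand lowered the signal, and Srebf1 and Srebf2 were called in the inhibitor group alone. Srebf2 lost its call in this contrast without untreated replicate 1 (0.148) or 3 (0.105), inhibitor replicate 1 (0.0707) or 3 (0.0525) and ligand replicate 2 (0.0542), and with the mean over its probe sets (0.438), in a range of 0.0224 to 0.438.

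Other probe sets of the same genes did not always follow the brightest one. Of 79 probe sets listed for the 33 genes 76 passed the filter, and 23 genes had several. Sc5d alone was called in both directions: a dimmer probe set of mean signal 338 had a change of -0.52 ± 0.11 under the inhibitor (adjusted p 0.00289) where the brightest, at 3652, had 0.43 ± 0.07. For Cyp51 the set at 2357 had a change of -0.05 ± 0.09 (adjusted p 0.718) under the inhibitor. The dimmest set of Cyp51, at 211, rose there as the brightest did (0.58 ± 0.11, adjusted p 0.0014). For Lss the set at 1374 had a change of -0.16 ± 0.07 (adjusted p 0.0695) under the inhibitor, though that set was lower with the ligand (-0.35 ± 0.07, adjusted p 0.00301). Dimmer sets were called where the brightest was not for Hsd17b7 under the inhibitor (0.45 ± 0.13, adjusted p 0.0177), and between ligand and inhibitor for Me1 (-0.47 ± 0.12, adjusted p 0.00654) and Acsl3 (0.52 ± 0.13, adjusted p 0.00533), besides Ggps1, Hmgcs1 and Stard4 above and Scd2. That set of Acsl3 went against the brightest, which had a difference of -0.14 ± 0.07 (adjusted p 0.123).

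For Scd2 the dimmer sets were called and the brightest was not. At a mean signal of 14780 the brightest had a change of 0.09 ± 0.12 under the inhibitor, against 0.59 ± 0.09 (adjusted p 0.000338) at 2355 and 0.82 ± 0.20 (adjusted p 0.00638) at 196. The set at 2355 also rose with the ligand (0.32 ± 0.09, adjusted p 0.0358). With quantile normalization the brightest set of Scd2 was itself called under the inhibitor (0.000442), as was the mean of its sets (0.000976), in a range of 0.000442 to 0.927. Scd1 likewise had the larger change on its dimmer set, 0.99 ± 0.08 at 1081 against 0.63 ± 0.10 at 9845. For Hmgcs1 the differences between ligand and inhibitor ran from -0.11 ± 0.12 to -0.69 ± 0.12 over 5 sets, 4 of them called, with the widest on the dimmest set (349). These values come from a fit over all named probe sets above the filter. Whether sets of a gene read different transcript ends, and whether Scd1 and Scd2 probes bind the other's transcript, was not tested. The brightest sets of Hmgcs1, Fdft1 and Hsd17b7 end in _x_at, the array's mark for probes that may also match other transcripts.

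**Figure D4:**
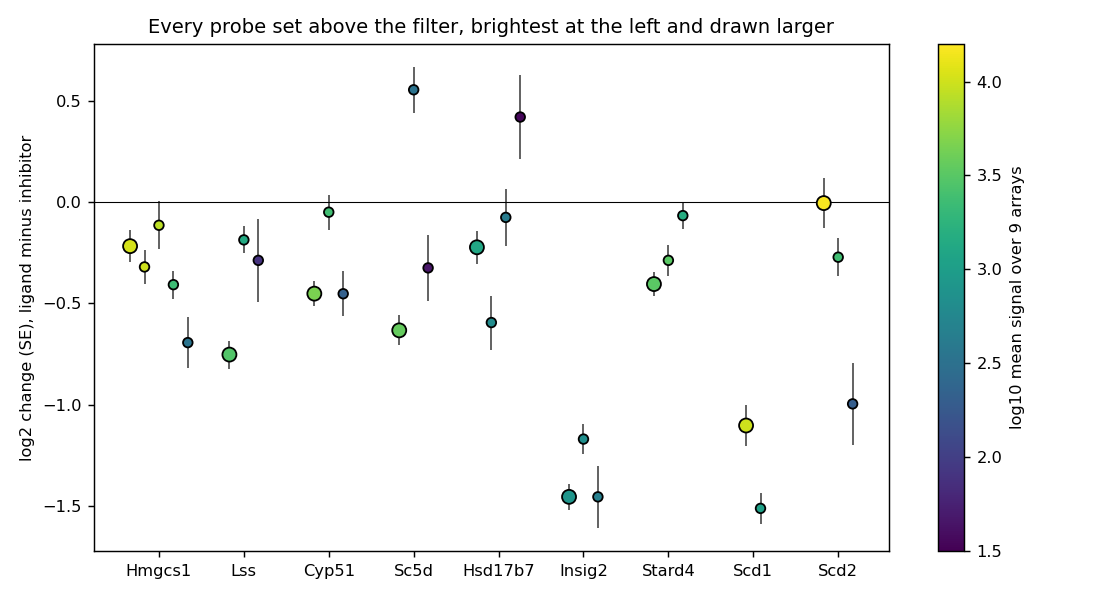
Log2 difference of ligand minus inhibitor with its SE (y axis) for every probe set above the filter of 9 genes (x axis), brightest at the left and drawn larger, coloured by log10 of the mean signal; the 9 genes were chosen after their values were seen. All probe sets of Insig2 and Scd1 lie below -1, while those of Sc5d lie on both sides of 0.

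Further genes of the pathway were taken from general knowledge in 3 lists, with earlier results of these data known. From each list up to 4 genes with the smallest limma p are named. Of 16 other sterol genes tested, 5 rose and 2 fell under the inhibitor, while 4 rose and 3 fell with the ligand (medians 0.15 and 0.08). The called share under the inhibitor was near the 44.9% of all genes, and with the ligand 24% of all genes were called. Npc1l1, which takes up dietary cholesterol at the brush border, had signals of 3474 ± 428 in untreated, 5676 ± 140.2 in inhibitor and 1747 ± 186 in ligand arrays, with changes of 0.71 ± 0.10 (adjusted p 4.98e-05) and -0.98 ± 0.10 (adjusted p 1.19e-05). Erlin1, a membrane protein of the endoplasmic reticulum that takes part in sterol-regulated protein turnover, changed by 0.56 ± 0.09 (adjusted p 0.000275) and -0.49 ± 0.09 (adjusted p 0.00214). Acat1, the mitochondrial acetoacetyl-CoA thiolase, ran the other way, at -0.92 ± 0.07 (adjusted p 3.78e-07) and 0.86 ± 0.07 (adjusted p 2.83e-06). Cyp27a1, a sterol hydroxylase, rose in both, by 1.53 ± 0.14 (adjusted p 2.47e-06) and 0.51 ± 0.14 (adjusted p 0.0196), from an untreated signal of 53.1 ± 9.16, so its change is understated.

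Of 10 tested genes in the isoprenoid branches 4 fell under the inhibitor and 1 with the ligand (medians -0.16 and 0.02), where 23.9% and 9.28% of all genes were called lower and 44.9% and 24% were called in either direction. Coq2, of coenzyme Q synthesis, changed by -0.41 ± 0.06 (adjusted p 8.70e-05) under the inhibitor, as did Fntb, the catalytic subunit of farnesyltransferase (-0.53 ± 0.13, adjusted p 0.00566), Pdss2, which makes the side chain of coenzyme Q (-0.33 ± 0.08, adjusted p 0.00495), and Dhdds, of dolichol synthesis (-0.28 ± 0.10, adjusted p 0.0392). Of these, Pdss2 was also lower with the ligand (-0.26 ± 0.08, adjusted p 0.034). In the third list, 28 tested genes of fatty acid supply, elongation and desaturation, 7 rose and 4 fell under the inhibitor, and 3 rose and 4 fell with the ligand (medians 0.07 and -0.03), shares near the 44.9% and 24% of all genes called. Hacd1, a dehydratase of the elongation cycle, fell from 4499 ± 119 to 2031 ± 37.1 (-1.14 ± 0.06, adjusted p 3.66e-08) and had a signal of 5309 ± 207 with the ligand (0.24 ± 0.06, adjusted p 0.0162). Fads1, a desaturase of polyunsaturated fatty acids, followed the same order, with changes of -0.69 ± 0.06 (adjusted p 1.83e-06) and 0.26 ± 0.06 (adjusted p 0.00916). Acsl5, an acyl-CoA synthetase, went in the opposite order (0.50 ± 0.09 (adjusted p 0.000443) and -0.34 ± 0.09 (adjusted p 0.013)), as did Mlycd, malonyl-CoA decarboxylase (0.64 ± 0.11, adjusted p 0.000528), whose change with the ligand did not pass (-0.32 ± 0.11, adjusted p 0.0601).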

How the data were processed

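RNA was extracted with the miRNeasy Mini Kit and amplified and biotin-labelled with MessageAmp Premier per the labels' protocols, for Affymetrix mouse arrays. The deposited values are linear intensities (MAS5 signals), 1 per probe set, per the submitters' processing notes, the version and settings being not given in the sources used here. In these values the mean of each array without its highest and lowest 2% was 350, a common scale on which differences in total RNA cannot be seen.

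Of 45101 probe sets, 34945 had 1 gene symbol in the platform annotation supplied, 932 several and 9160 none, and 64 controls were left out. Entrez identifiers matched the mouse gene table for 34741. Signals were used as log2(signal + 16), which understates changes of dim genes, where a set passed its array's 40th percentile (25.9 to 32.0) on at least 3 arrays. Each gene is its brightest set, 12941 genes in all. limma 3.58.1 (R 4.3.3) fitted 1 mean per group over 9 arrays with an intensity trend and 6 residual degrees of freedom, 2-sided, Benjamini-Hochberg adjusted at 0.05, and was tested on simulated data. Genes with a change of at least 0.5 in a called comparison and 9 fixed genes have every array printed, and up to 4 genes per further list, by smallest p, are named. Members, lists and rules were chosen with earlier results of these data known. Alternatives were other offsets, filters, normalizations, variance models, probe set rules, a replicate block and leaving out each array.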

Additional observations from a re-analysis of the deposited data

How the results depend on the processing

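Over the 20 alternatives the number of the 33 genes called ranged from 12 to 16 for inhibitor against untreated (13 as reported), from 6 to 9 for ligand against untreated (8), from 13 to 20 for ligand against inhibitor (15) and from 4 to 7 for both treatments together (5), all within 1.5 times. The genes called in every alternative numbered 9, 6, 11 and 4. Of 2607 recomputed changes none turned its sign where either value was called, 45 lost a call and 41 gained 1, and 109 uncalled values changed sign. Under median centring the difference between ligand and inhibitor also passed, lower with the ligand, for Idi1 (0.0268), Sqle (0.0389), Aacs (0.0156), Acsl3 (0.0165) and Me1 (0.0218). With the mean of probe sets it was lost for Sc5d (0.175), whose sets disagree, as was its call under the inhibitor (0.767). Samples of the 3 groups share replicate numbers, but same-numbered arrays did not deviate together (correlations -0.077 to 0.082). With the replicate block 14, 7, 15 and 5 of the 33 genes and 5742, 2981 and 7130 of all genes (pairwise comparisons) were called, with Tm7sf2 lost with the ligand (0.0507) and Hsd17b7 gained under the inhibitor (0.0396), against 5812, 3105 and 7154 without it. The 3 arrays a group limit the precision.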
